A study of Homo sapiens with 10 samples.

Results

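The 8 genes described here encode the factors that start and stop transcription of ribosomal RNA genes by RNA polymerase I: TAF1C, TAF1A, TAF1B, TAF1D and TBP, which together form the factor SL1, and UBTF, RRN3 and TTF1. They were taken by gene symbol from the long RNA count tables, where each symbol stood on 1 row, so that 8 of 57773 rows were used. Long RNA had been sequenced after depletion of ribosomal RNA from cells labelled BEAS-2B, a line of human bronchial epithelium made immortal in culture. The samples were 3 libraries labelled TAF1C overexpression, from stable cells carrying a pCMV6 vector for TAF1C, and 2 libraries labelled empty vector, from stable cells carrying a vector without it. All of these cells had been kept in LHC9 medium with serum under G418 selection. Nothing in the labels tells clones from mixed cells, separate cultures from repeats, or which part of TAF1C the vector carried. Each p below therefore measures the spread between these libraries.

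In human cells RNA polymerase I cannot find the ribosomal RNA promoter alone. SL1 and the DNA-bending protein UBTF, which has several HMG boxes, bind the promoter, and RRN3 (TIF-IA) bridges the polymerase to SL1. The polymerase then reads the ribosomal DNA until it meets TTF1, which binds terminator sites behind the gene. The rate of this step sets ribosome production and is tied to cell growth. TBP is shared with the initiation factors of RNA polymerases II and III, whereas TAF1A, TAF1B, TAF1C and TAF1D are known as the subunits particular to SL1.

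The libraries held 34212883 to 37533366 gene counts in the TAF1C group and 22809601 and 28476151 in the empty vector group. Levels are given in CPM, counts scaled to library size. The SD of the log2 difference in CPM was 0.383 to 0.416 between pairs of libraries labelled TAF1C, against 1.08 between the 2 empty vector libraries. Of 29 photoreceptor genes, which bronchial cells are not known for, 25 were tested. Of these, 20 were lower in the libraries labelled TAF1C (edgeR adjusted p under 0.05), beside 22.6% of all tested genes. A gene needed 1 CPM in at least 2 libraries to be tested, so genes high only in the empty vector libraries entered. The count is thus a description. Without empty vector replicate 1, 15 were tested, and without replicate 2, 16 were, and the count lowered moved. The list of 29 summed to 0.00282% to 0.00359% of all counts in the libraries labelled TAF1C, against 0.389% in empty vector replicate 1 and 0.209% in replicate 2, and of the 29 at most 1 was at 0 in any library. OTX2, a homeobox factor of the retina, had 0.228, 0.0588 and 0.124 CPM in the libraries labelled TAF1C, against 303 and 425 CPM in the empty vector libraries. RCVRN, which encodes the photoreceptor protein recoverin, was at 0.770, 0.412 and 0.742 CPM, against 255 CPM in empty vector replicate 1 and 1.07 CPM in replicate 2, so the 2 empty vector libraries also differed in these genes. The 14 neuronal markers summed to 0.0101% to 0.0107% in the libraries labelled TAF1C, against 0.105% and 0.0685% in the empty vector libraries. Under the same filter 11 of 12 tested fell, beside 22.6% of all tested genes. MAP2, which did not pass, had a log2 fold change of 0.26 (edgeR adjusted p = 0.633). Leaving out either empty vector library left 6 tested, and without replicate 1 they did not all go the same way. Of 8 bronchial epithelial markers, KRT7, KRT8 and KRT18 were higher and EPCAM was lower in the libraries labelled TAF1C. CDH1 and KRT19 did not pass, and KRT5 and TP63 were too low to test. Among all tested genes 15.9% were raised and 22.6% lowered. EPCAM was at 14.7 CPM in empty vector replicate 1 but 1.10 CPM in replicate 2. The 8 summed to 0.124% to 0.136%, against 0.0431% and 0.0356%. KRT7 was the largest part, at a mean of 1027 CPM against 235 CPM. These levels and that of TAF1C leave the identity of the libraries in doubt, so each fold change below compares libraries as labelled. The part that these markers have in the values below was not tested, and in bulk RNA a change in RNA per cell cannot be told apart from a change in the mix of cells.

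Of the 8 genes, 1 fell, 0 rose and 7 did not pass the test in the libraries labelled TAF1C (edgeR quasi-likelihood test on counts, adjusted over 18402 tested genes, threshold 0.05). All 8 had passed the filter of 1 CPM in at least 2 libraries. Among all tested genes 38.5% passed, 15.9% as raised and 22.6% as lowered, and among the 10338 genes with a mean of at least 10 CPM 43.7% did. The median log2 fold change was 0.01 over the 8 genes and -0.10 over all tested genes, and the median size of the change without its sign was 0.22 and 0.62. The lowered gene was TAF1B. It was the 1 gene of the 8 with all libraries labelled TAF1C below both empty vector libraries, and RRN3 was the 1 gene with all of them above. Among all tested genes the groups did not overlap in these directions for 34.4% and 29.8%.

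**Figure D1:**
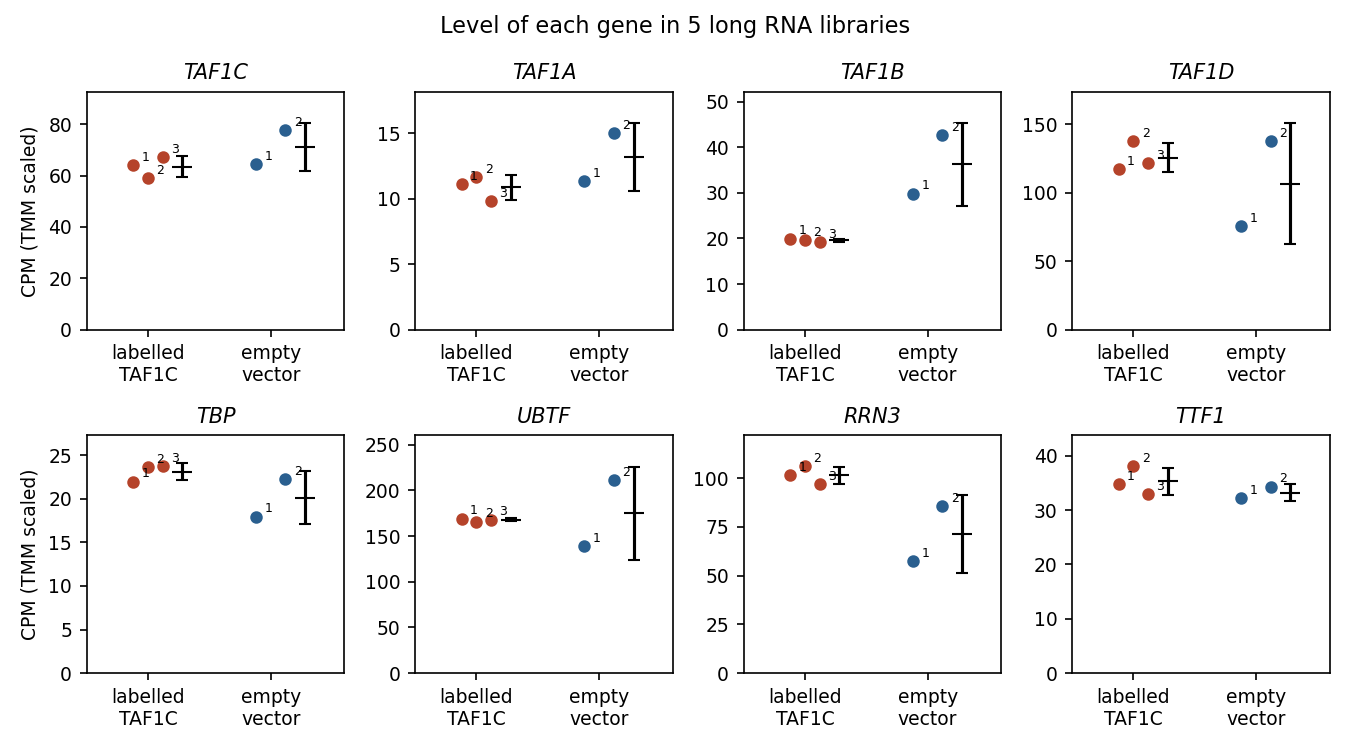
Level of the 8 genes in each long RNA library, in TMM-scaled CPM on a linear axis from 0. Points are libraries with their replicate number, and the bar beside them gives the mean and SD of the group. TAF1B sat at 19.1 to 20.0 CPM in the libraries labelled TAF1C, below both empty vector libraries, and the other groups overlapped except for RRN3.

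TAF1C (ENSG00000103168), the subunit that the vector was to supply, was not higher in the libraries labelled for it. Its level was 64.0, 59.0 and 67.0 CPM in the libraries labelled TAF1C, against 64.4 and 77.7 CPM in the empty vector libraries. With TMM scaling the range of the labelled group thus reached above empty vector replicate 1 and stayed below replicate 2. With counts divided by library totals alone, each library labelled TAF1C lay below both empty vector libraries. The log2 fold change of TAF1C was -0.17 ± 0.13 (SE; edgeR adjusted p = 0.353), and the 95% interval of the fold ran from 0.713 to 1.11. An exact two-sided permutation test of the TAF1C level gave p = 0.4, where 3 against 2 libraries allow no p under 0.2. Relative to empty vector replicate 2 alone the log2 level of TAF1C fell by 0.36, and relative to replicate 1 alone the log2 fold change was -0.06. TAF1C fell past the threshold with library totals in place of TMM scaling (-0.38, edgeR adjusted p = 0.0316) and with a minimum of 10 CPM (-0.34, edgeR adjusted p = 0.0400). In the 15 alternatives the log2 fold change of TAF1C was below 0 in each, from -0.38 to -0.06. The tables do not separate reads of the vector from reads of the chromosomal gene, and no source used here says how reads of a vector transcript were counted. Since the targeted gene was not higher in the libraries labelled for it, the group is called by its label throughout.

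TAF1B (ENSG00000115750), an SL1 subunit related to the RNA polymerase II factor TFIIB, was the gene of the set that changed. It stood at 20.0, 19.6 and 19.1 CPM in the libraries labelled TAF1C, against 29.8 and 42.7 CPM in the empty vector libraries. The libraries labelled TAF1C lay within 1 CPM of each other, and the lower empty vector library stood well above them. The group means were 19.6 ± 0.426 CPM (SD, n = 3) and 36.2 ± 9.06 CPM (SD, n = 2), and log2 TAF1B fell by 0.89 ± 0.18 (SE; edgeR adjusted p = 0.0142), with a fold of 0.539 and a 95% interval of 0.395 to 0.737. Against each empty vector library alone TAF1B was also lower, by 1.19 against replicate 2 and by 0.64 against replicate 1. The call was lost without any 1 of the libraries labelled TAF1C (edgeR adjusted p = 0.0661, 0.0706 and 0.0714), with no filter on low counts (edgeR adjusted p = 0.0562) and with the replicate numbers as a block (edgeR adjusted p = 0.0703). The TAF1B value ran from -1.19 to -0.64 over all alternatives, and it passed in 10 of the 15. Beside these, the share of all tested genes that fell was 27.3% with library totals, 20.9% with RLE size factors, 15.8% with quantile normalization, 23.9% with DESeq2, 18.6% with limma-voom, 22.3% with a robust fit, 26.5% with the 10 CPM minimum and 22.6% with Ensembl rows apart. Where TAF1B was not called the share was 8.55% with no filter, 14.5% with the block, and 11.3%, 10.7% and 11.1% without replicates 1, 2 and 3 labelled TAF1C.

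TAF1A (ENSG00000143498), an SL1 subunit with the smallest counts of the set, had 391, 397 and 317 counts in the libraries labelled TAF1C and 305 and 423 in the empty vector libraries. In CPM these were 11.1, 11.7 and 9.80 in the libraries labelled TAF1C, against 11.3 and 15.0 in the empty vector libraries, so the groups overlapped. The log2 fold change of TAF1A was -0.28 ± 0.21 (SE; edgeR adjusted p = 0.343), with a fold interval of 0.572 to 1.19. It turned to 0.31 with quantile normalization, and against empty vector replicate 2 alone TAF1A was lower by 0.53. At these counts the exact Poisson interval of 1 library was up to 11.4% of its count to each side, the widest of the set, and covers counting error only.

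TAF1D (ENSG00000166012), a subunit whose gene hosts snoRNAs in its introns, differed most between the empty vector libraries. It was at 117, 138 and 121 CPM in the libraries labelled TAF1C, against 75.3 and 138 CPM in the empty vector libraries. Empty vector replicate 1 was low, and replicate 2 matched the highest of the libraries labelled TAF1C. For TAF1D as a whole the estimate on the log2 scale was 0.23 ± 0.26 (SE; edgeR adjusted p = 0.510), with a fold interval of 0.753 to 1.84. Against empty vector replicate 1 alone TAF1D was higher by 0.70, and against replicate 2 alone it was lower by 0.20.

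TBP (ENSG00000112592), the TATA-binding protein that SL1 shares with other factors, was at 22.0, 23.6 and 23.7 CPM in the libraries labelled TAF1C, against 18.0 and 22.3 CPM in the empty vector libraries. The lowest library labelled TAF1C fell between the 2 empty vector libraries. For TBP the log2 fold change came to 0.20 ± 0.16 (SE; edgeR adjusted p = 0.354), with a fold interval of 0.877 to 1.51. With library totals and against empty vector replicate 2 alone it was slightly below 0.

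UBTF (ENSG00000108312), which coats the active ribosomal DNA, was at 169, 166 and 168 CPM in the libraries labelled TAF1C, against 139 and 211 CPM in the empty vector libraries. The libraries labelled TAF1C lay close together between the empty vector libraries. For UBTF the log2 fold change came to -0.06 ± 0.19 (SE; edgeR adjusted p = 0.817), with a fold interval of 0.691 to 1.33. Against empty vector replicate 2 alone UBTF was lower by 0.40, and against replicate 1 alone it was higher by 0.24.

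RRN3 (ENSG00000085721), the factor through which growth signals switch the polymerase on, was at 101, 106 and 97.0 CPM in the libraries labelled TAF1C, against 57.4 and 85.7 CPM in the empty vector libraries. All libraries labelled TAF1C lay above both empty vector libraries, by a margin smaller than the gap between the empty vector libraries. The log2 fold change of RRN3 was 0.50 ± 0.19 (SE), with an unadjusted p = 0.0374 and an edgeR adjusted p = 0.0812. The fold was 1.42 with an interval of 1.03 to 1.95. Against empty vector replicate 1 alone RRN3 was higher by 0.79, and against replicate 2 alone the log2 fold change was 0.18. In the 15 alternatives the RRN3 value was above 0 in each, from 0.18 to 0.79, and it passed in 1 of them.

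TTF1 (ENSG00000125482), the terminator-binding factor, which is not the lung transcription factor that shares its abbreviation, was at 34.8, 38.0 and 33.0 CPM in the libraries labelled TAF1C, against 32.1 and 34.3 CPM in the empty vector libraries. The groups overlapped, and in TMM-scaled CPM the empty vector libraries were closest for this gene of all 8. For TTF1 the log2 fold change came to 0.09 ± 0.13 (SE; edgeR adjusted p = 0.623), with a fold interval of 0.854 to 1.32. It turned below 0 with library totals, with a minimum of 10 CPM and against empty vector replicate 2 alone, and passed in none of the 15 alternatives.

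**Figure D2:**
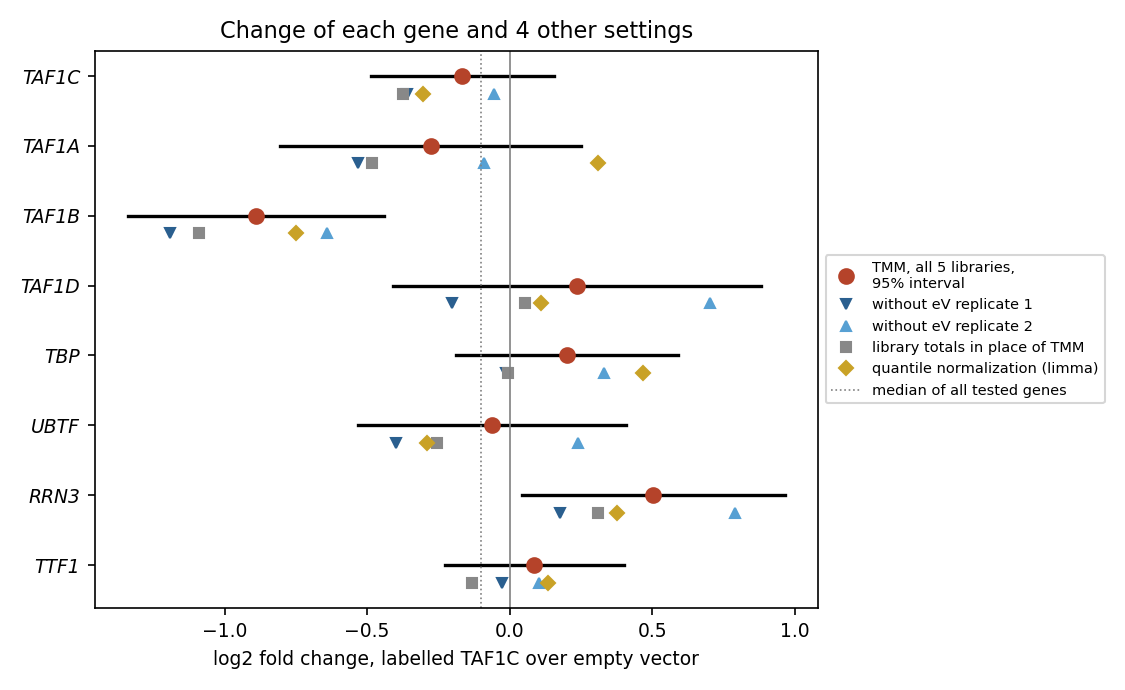
Log2 fold change of the 8 genes, libraries labelled TAF1C over empty vector. Circles and bars give the TMM-scaled edgeR estimate with its 95% interval, the small symbols 4 other settings, and the dotted line the median of all tested genes at -0.10. TAF1B lies below 0 and RRN3 above 0 in every setting drawn, while the other symbols fall on both sides of 0 for TAF1A, TAF1D, TBP, UBTF and TTF1.

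The 8 genes shared a direction of difference between the empty vector libraries as scaled here. In TMM-scaled CPM all 8 were higher in replicate 2 than in replicate 1, by 1.07-fold for TTF1 to 1.83-fold for TAF1D, with a median log2 ratio of 0.46. The TMM factors of 1.21 for replicate 1 and 0.993 for replicate 2 enter each of these ratios. TTF1 had 865 of 22312838 tested counts in replicate 1 and 966 of 28332849 in replicate 2. Without the TMM factors TTF1 was thus lower in replicate 2. Among all tested genes 48.9% were higher in replicate 2, and among those with a mean of at least 10 CPM 65.8% were, with a median log2 ratio of 0.21. The choice of empty vector library accordingly moved the counts of called genes: without replicate 1, 5 of the 8 fell and 0 rose (TAF1C, TAF1A, TAF1B, TAF1D and UBTF), where 29.5% of all genes tested fell. Without replicate 2, 4 of the 8 rose and 1 fell (TAF1D, TBP, UBTF and RRN3, and TAF1B), where 35.8% of all genes rose and 34% fell. Here the spread comes from the 3 libraries labelled TAF1C, on the assumption that the lone empty vector library varies as they do. The 2 empty vector libraries differed more, with an SD of 1.08 against 0.383 to 0.416, so these counts are a description. TAF1B was the gene counted as lowered in both fits. The coefficient of variation of the 8 genes was 1.01% to 8.89% in the libraries labelled TAF1C, against 4.65% to 41.5% in the empty vector libraries.

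**Figure D3:**
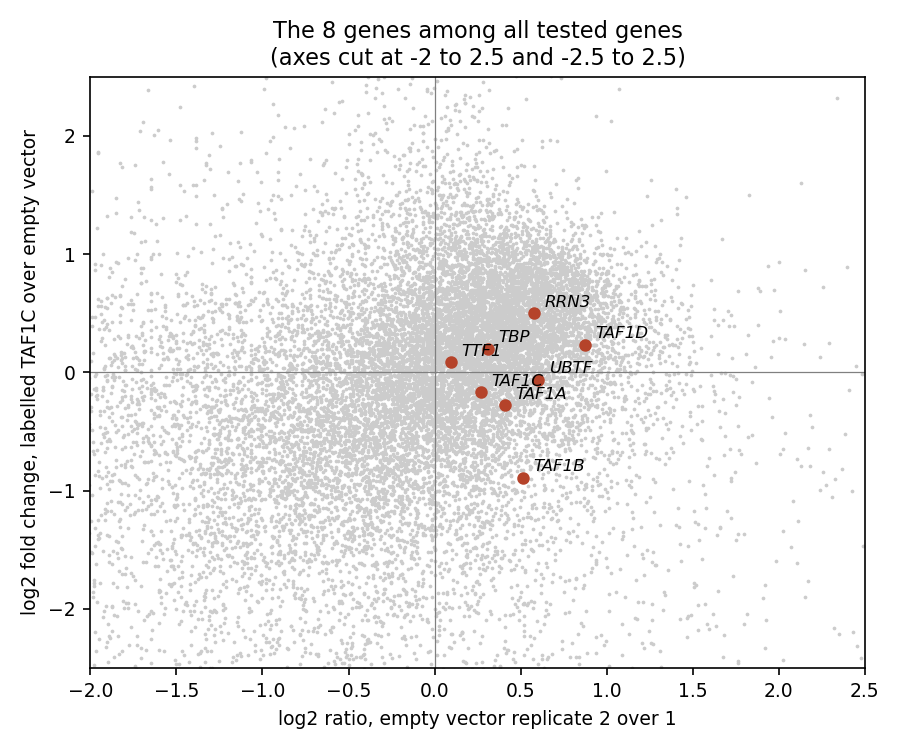
Log2 fold change of the libraries labelled TAF1C over empty vector, against the log2 ratio of empty vector replicate 2 over replicate 1, for the tested genes within the axes (grey) and the 8 genes (red). In TMM-scaled CPM all 8 lie to the right of 0, and TAF1B lies lowest, at -0.89.

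Ratios of 2 genes within a library do not depend on a scaling factor common to all its genes, though quantile normalization can move them. Of 9 ratios, 4 set the 2 largest changes against the 2 smallest (TAF1B and RRN3 over UBTF and TTF1). The other 5, within SL1, were added after the values were seen. TAF1B over TBP had a log2 ratio of -0.14, -0.27 and -0.31 in the libraries labelled TAF1C, against 0.73 and 0.94 in the empty vector libraries. TAF1B counts thus stood below those of TBP in the libraries labelled TAF1C and above them in the others. TAF1B over UBTF was at -3.08, -3.08 and -3.14, against -2.22 and -2.31, a difference of -0.84 in which both empty vector libraries were close. TAF1B over TAF1C was at -1.68, -1.59 and -1.81, against -1.11 and -0.87. The TAF1B ratio was also lower over TAF1A (difference -0.60), TAF1D (-1.16) and TTF1 (-0.95). RRN3 over UBTF had a log2 ratio of -0.74, -0.64 and -0.79 in the libraries labelled TAF1C, against -1.28 and -1.30 in the empty vector libraries, a difference of 0.56. RRN3 over TTF1 was at 1.54, 1.48 and 1.55, against 0.84 and 1.32. TAF1C over TBP was at 1.54, 1.32 and 1.50, against 1.84 and 1.80. The groups did not overlap in any of the 9. An exact two-sided permutation test gave p = 0.2 for each, the smallest that 3 against 2 libraries allow. The pairs were chosen by the size of their changes or with the values known, so this is a description and nothing is concluded from that p. The ratios also share genes and libraries. Levels of different genes were not ranked, since the tables give no transcript lengths.

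**Figure D4:**
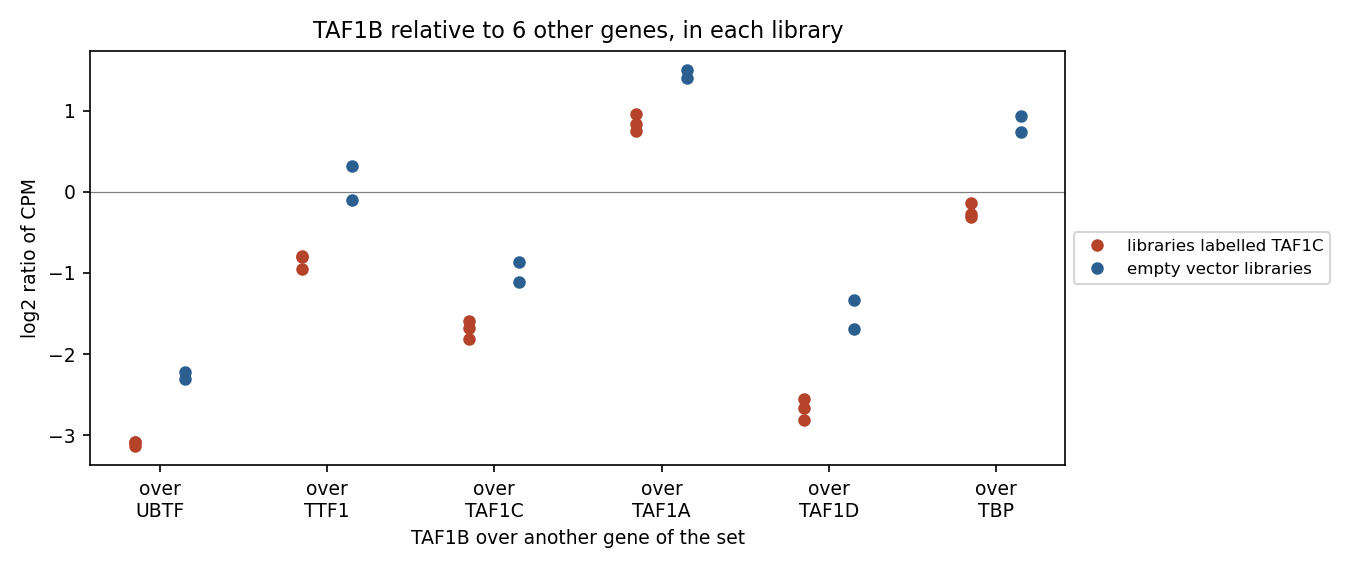
Log2 ratio of TAF1B CPM, in pairs chosen with the values known, over the CPM of 6 other genes of the set, in each library labelled TAF1C (red) and each empty vector library (blue). For every one of the 6, the libraries labelled TAF1C lie below both empty vector libraries.

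Start sites of the set are shown because 6 of the 8 shared a short motif near their start, whether or not they changed. The windows, from RefSeq on GRCh38.p14, ran from 250 bases before to 50 bases after a start, and all 8 genes matched by symbol. The motif CCGGAAG or its reverse complement CTTCCGG, the core bound by ETS family factors, stood in the first listed window of TAF1C, TAF1A, TAF1B, TAF1D, RRN3 and TTF1. It stood in 17.4% of the first windows of 11008 tested genes, and in 10.3% of all 35116 windows. In 100 bases from 75 before the start to 25 from the start on, with that motif in capitals, 5 of these genes read as follows.
TAF1C, chr16:84187033-84187132, minus strand: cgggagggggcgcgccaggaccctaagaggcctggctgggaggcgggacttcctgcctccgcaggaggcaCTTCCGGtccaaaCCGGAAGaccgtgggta
TAF1A, chr1:222589909-222590008, minus strand: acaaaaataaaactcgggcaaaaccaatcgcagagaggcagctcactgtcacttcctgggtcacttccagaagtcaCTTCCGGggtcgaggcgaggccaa
TAF1B, chr2:9843367-9843466, plus strand: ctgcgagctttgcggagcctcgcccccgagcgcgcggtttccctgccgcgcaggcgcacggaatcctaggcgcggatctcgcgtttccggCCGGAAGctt
TAF1D, chr11:93741471-93741570, minus strand: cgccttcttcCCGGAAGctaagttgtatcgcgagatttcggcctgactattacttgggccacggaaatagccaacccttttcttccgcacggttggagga
TTF1, chr9:132406816-132406915, minus strand: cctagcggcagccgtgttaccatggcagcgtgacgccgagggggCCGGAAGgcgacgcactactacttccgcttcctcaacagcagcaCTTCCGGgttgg
TAF1C held the motif on both strands at the start, and TAF1B, which fell, held it too. The E-box CACGTG was in 0 of the 8 windows and in 9.66% of those of tested genes. The motif GGGCGG, searched on both strands, was in 3 of the 8, TAF1D, TBP and UBTF, and in 67.9% of the windows of tested genes. No match of one motif overlapped a match of another in the 8 windows, and a match describes these letters, not binding.

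Genes that share sequence or position with the set bear on what its counts hold. RRN3 has near-identical pseudogenes, and reads could be split among them in a way that the tables do not show. RRN3P1 fell (log2 fold change -0.78, edgeR adjusted p = 0.0396), with 235, 243 and 252 counts in the libraries labelled TAF1C, against 287 and 397 in the empty vector libraries. RRN3P3 had a log2 fold change of 0.62 (edgeR adjusted p = 0.0918), with 295, 301 and 345 counts against 148 and 187. Their counts were far below those of RRN3, at 3557, 3604 and 3136 against 1544 and 2412. Summed with RRN3P1, RRN3P2 and RRN3P3, RRN3 was at 117, 123 and 116 CPM in the libraries labelled TAF1C, against 75.8 and 107 CPM in the empty vector libraries. That sum, chosen after the data were seen, had a log2 fold change of 0.37 (edgeR adjusted p = 0.128). TBPL1, a relative of TBP that acts at other promoters, rose, with 25.4, 25.5 and 24.8 CPM in the libraries labelled TAF1C, against 15.3 and 19.5 CPM in the empty vector libraries (log2 fold change 0.54, edgeR adjusted p = 0.0462).

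Of the 7 snoRNAs looked up by Ensembl identifier in introns of TAF1D, 6 were listed at 0 in all 5 libraries. SNORD6 had 44, 52 and 33 counts in the libraries labelled TAF1C, against 13 and 33 in the empty vector libraries. In CPM these were 1.25, 1.53 and 1.02, against 0.483 and 1.17, so the groups overlapped (log2 fold change 0.61, edgeR adjusted p = 0.374). TAF1C overlaps DNAAF1, a gene of cilia, in RefSeq. DNAAF1 had 46, 34 and 50 counts in the libraries labelled TAF1C, against 130 and 36 in the empty vector libraries. TAF1C itself had 2245, 2005 and 2168 counts, against 1733 and 2186. TAF1D overlaps CEP295, listed as KIAA1731, which fell (log2 fold change -0.56, edgeR adjusted p = 0.0181). RRN3 overlaps PDXDC1 there, whose log2 fold change was 0.29 (edgeR adjusted p = 0.0678). No source used here gives the strand setting of the counting, so reads of such overlapping genes cannot be told apart. NTAN1, the nearest gene of RRN3 toward lower coordinates, rose (log2 fold change 0.75, edgeR adjusted p = 0.0168). Of the nearest genes of the other members, HSDL1 beside TAF1C fell (-0.72), SCARNA9 beside TAF1D fell (-1.37) and PDCD2 beside TBP rose (0.76). Among the 10 nearest tested genes of TAF1B on chromosome 2, 5 on each side, 3 fell and 1 rose, near the 22.6% lowered and 15.9% raised among all tested genes, with a median log2 fold change of -0.45. ADAM17, a membrane protease gene among them, was at 22.5, 27.8 and 23.9 CPM in the libraries labelled TAF1C, against 37.8 and 46.7 CPM in the empty vector libraries (log2 fold change -0.77, edgeR adjusted p = 0.0153). The nearest 10 of RRN3 held 1 raised and 1 lowered gene, with a median of 0.15, and those of TAF1C 1 raised and 4 lowered, with a median of -0.61. These counts over 10 genes were not tested against the shares over all tested genes.

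Of 12 tested subunits of RNA polymerase I, 6 rose, 0 fell and 6 did not pass, beside 15.9% raised and 22.6% lowered among all tested genes. The raised subunits were POLR1E and POLR1B, and POLR2L, POLR2E, POLR2F and POLR2H, which RNA polymerase I shares with RNA polymerase II. Those that did not pass were TWISTNB, POLR1D, POLR2K, CD3EAP, POLR1C and POLR1A, the last with a log2 fold change of 0.21 (edgeR adjusted p = 0.663). The median log2 fold change was 0.71 over the subunits and -0.10 over all tested genes. The counts depended on which empty vector library was left out, and without replicate 1 the subunits did not all go the same way. There were 3 raised subunits without any 1 library labelled TAF1C, where 5.84%, 6.48% and 5.94% of all genes rose without replicates 1, 2 and 3. POLR2L, a small subunit shared by all RNA polymerases, was at 203, 182 and 192 CPM in the libraries labelled TAF1C, against 66.5 and 85.8 CPM in the empty vector libraries (log2 fold change 1.34 ± 0.15 (SE), edgeR adjusted p = 0.00232). POLR1E, which is particular to RNA polymerase I, was at 97.7, 97.8 and 93.5 CPM, against 42.8 and 51.6 CPM (edgeR adjusted p = 0.00279). ZNRD1 was listed at 0 in all libraries. The difference between subunits and initiation factors was not tested.

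Of 26 regulators of ribosomal DNA transcription, 8 rose, 2 fell and 16 did not pass, beside the same 15.9% raised and 22.6% lowered among all tested genes. Their median log2 fold change was 0.47. Without empty vector replicate 1, 13 rose and 6 fell, where 29% of all genes rose and 29.5% fell, and without replicate 2, 19 rose and 3 fell, where 35.8% rose and 34% fell. Without 1 library labelled TAF1C, 2 or 3 rose and 1 fell. PTRF, named for the release of RNA polymerase I transcripts and also the coat protein of caveolae, was at 466, 437 and 446 CPM in the libraries labelled TAF1C, against 193 and 211 CPM in the empty vector libraries (edgeR adjusted p = 0.00203). The lowered genes were KDM2B and PHF2, both histone demethylases. TCOF1, the nucleolar protein treacle, was at 533, 528 and 533 CPM, against 215 and 285 CPM (edgeR adjusted p = 0.00581). Of 24 other partners of TBP, mostly subunits of TFIID and of the RNA polymerase III factor TFIIIB, 5 rose, 1 fell and 18 did not pass, with a median of 0.03. The raised count was near the 15.9% of all tested genes and the lowered count below the 22.6%. Without empty vector replicate 1, 7 rose and 6 fell (29% and 29.5% of all genes), without replicate 2, 12 rose and 4 fell (35.8% and 34%), and without 1 library labelled TAF1C 1 or 2 rose and 0 fell. DRAP1, part of the TBP repressor NC2, was at 655, 568 and 629 CPM in the libraries labelled TAF1C, against 148 and 188 CPM in the empty vector libraries (log2 fold change 1.87 ± 0.17 (SE), edgeR adjusted p = 0.00123). TAF10, a TFIID subunit, was at 70.3, 60.1 and 69.0 CPM, against 35.0 and 43.9 CPM (edgeR adjusted p = 0.0132). BDP1, a TFIIIB subunit, was the lowered gene (edgeR adjusted p = 0.0471). These lists share no gene with the 8. The ribosomal RNAs had been depleted before sequencing, and rows of the rRNA biotype held 0.00255% to 0.00265% of counts in the libraries labelled TAF1C, against 0.00602% and 0.00352% in the empty vector libraries.

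Across the 5 libraries, the 3 tested genes with the pattern most like that of TAF1C were SCFD2, CDK11B and PPP2R5D, by the Euclidean distance of centred log2 CPM (0.0515, 0.0550 and 0.0553). SCFD2, for example, was at 17.1, 15.1 and 17.1 CPM in the libraries labelled TAF1C, against 16.7 and 20.3 CPM in the empty vector libraries. Like TAF1C, each of the 3 was highest in empty vector replicate 2.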

How the data were processed

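Long RNA of 5 libraries labelled BEAS-2B was used, and their identity is in doubt. TAF1C was not higher under its label, and the empty vector libraries held more RNA of photoreceptor and neuronal markers. The deposited tables hold raw gene counts from the authors, per the file headers and values, for 57773 Ensembl genes. The submitters' processing notes name DESeq2, HISAT2, Cufflinks 2.2.1, Trimmomatic 0.36 and Bowtie2 2.2.4, without roles, and hg19 as build. No source used here gives the counter, annotation or strand setting. The small RNA tables were not used, since they hold none of these genes.

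Rows sharing 1 of 236 repeated symbols were summed, leaving 55771. A gene was tested if 2 or more libraries had 1 CPM or more. The test was quasi-likelihood in edgeR 4.0.16 (R 4.3.3), with TMM scaling, two-sided, Benjamini-Hochberg adjusted over all tested genes, threshold 0.05. Each p compared 3 libraries with 2. Alternatives used limma 3.58.1 and DESeq2 1.42.0. The edgeR test was also run on simulated counts with the same dispersion in every library, which does not cover the unequal spread of these groups. Motifs and neighbours came from RefSeq tables of GRCh38, used for the order of genes only beside the printed windows.

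The 8 genes, the lists and the tests were chosen with earlier results of these data known. Named genes were the 8, the 2 called genes of smallest adjusted p per list, the 3 most like TAF1C, the nearest RefSeq genes and ratios of the 2 largest over the 2 smallest changes. The 5 ratios within SL1, the nearest 10 genes, the pseudogene sum, ZNRD1 and the marker genes named were added or chosen after values were seen. So was the naming of the further RNA polymerase I subunits.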

Additional observations from a re-analysis of the deposited data

How the results depend on the processing

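TAF1B stayed below 0 and RRN3 above 0 in all 15 alternatives, and TAF1C below 0. TAF1C passed as lowered at -0.34 with a minimum of 10 CPM and -0.38 with library totals, and ran from -0.36 to -0.057 with 1 library left out. Of the 8 genes, 2 were lowered with a minimum of 10 CPM, 2 with library totals, 0 with no filter and 0 with the replicate block, and 0 to 5 were lowered and 0 to 4 raised with 1 library left out. The share of all tested genes lowered was 26.5% with the 10 CPM minimum and 27.3% with library totals. It was 8.55% with no filter and 14.5% with the replicate block. With 1 library left out the shares over all genes moved too, as given in the Results. The counts with 1 empty vector library are a description, and none of these counts was tested against the shares. Over all genes, 4158 fell and 2922 rose. No filter gave 1817 raised, the replicate block 2662 lowered and 1425 raised, and leaving out 1 library 1960 to 5665 lowered and 1058 to 5967 raised. The sign turned with the setting for TAF1A (0.31 with quantile normalization), TBP (-0.0079 with library totals), TTF1 (-0.092 with a minimum of 10 CPM and -0.13 with library totals) and UBTF (0.0032 with no filter). With 1 library left out, TAF1D ran from -0.20 to 0.70, TBP from -0.012 to 0.33, TTF1 from -0.027 to 0.14 and UBTF from -0.40 to 0.24. Scaling moved the median log2 fold change over tested genes, which was -0.10 as reported, to -0.33 (library totals, 2269 raised and 5021 lowered) and 0.22 (quantile, 4303 raised and 2912 lowered). The cause of these shifts was not tested.

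The replicate numbers 1 and 2 stand in both groups. Libraries with the same number had a correlation of deviations of 0.0427 and 0.135 over 18402 genes, with only 2 such pairs. Replicate 3 labelled TAF1C had 0.103 with empty vector replicate 1. With 2 empty vector libraries, the values for 1 are those for the other with the sign turned, so they cannot decide whether libraries were paired. Here the numbers only name the libraries. The block is an alternative in which replicate 3 labelled TAF1C has no partner. The spread between 2 empty vector libraries limits every comparison here. Depth gave at least 305 counts for each of the 8 genes in each library.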
